A study of Mus musculus with 9 samples.

Results

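The response of RANKL-treated macrophages to vitamins D and K was compared between 3 libraries of the RANKL + Vit D + K group and 3 libraries of the RANKL group, which are 6 of the 9 libraries of the series. All genes of the deposited table were considered, and 17002 of 28379 had enough counts to be tested. Genes that RANKL itself changed against PBS (614 genes, 3.61% of those tested) were set apart, which left 16388 genes outside the RANKL response. The RANKL libraries entered both comparisons. At the edge of that limit, Rasgrp2 (edgeR adjusted p = 0.0498 between RANKL and PBS) was set apart and Pde4dip (edgeR adjusted p = 0.0502) was kept. Spib (edgeR adjusted p = 0.0504) was kept too, with a log2 fold change of 5.42 between RANKL and PBS. A gene outside the RANKL response may therefore still have moved with RANKL.

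The cells were primary bone marrow-derived macrophages (BMDMs) of C57BL/6J mice aged 10 weeks, without any genetic change. All cells, the PBS controls included, were kept for 48 h with macrophage colony-stimulating factor (M-CSF, 20 ng/ml). PBS cells had M-CSF only. RANKL, at 100 ng/ml, was added in the RANKL group. The RANKL + Vit D + K cells, called vitamin libraries here, had the same RANKL together with calcitriol (vitamin D, 1000 nM) and menaquinone-4. The dose of menaquinone-4 is 20 μM in the sample labels and 40 μM in the study's methods. No group received RANKL with 1 vitamin alone, so the effects of the 2 vitamins cannot be told apart here. The methods speak of pooled RNA, and nothing says that the replicates came from separate cultures or animals, so the p-values measure only the spread between these libraries, which may be technical.

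M-CSF keeps bone marrow progenitors alive as macrophages, and RANKL drives them towards osteoclasts, the cells that resorb bone. Calcitriol is the active form of vitamin D and acts through the vitamin D receptor, a nuclear receptor that pairs with RXR. Menaquinone-4 is a form of vitamin K, the cofactor of the enzyme that carboxylates glutamate in a small group of proteins.

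The total count was between 65915112 and 68229647 in every library. Of the vitamin libraries, replicate 2 stood nearer to the RANKL libraries than replicates 1 and 3: on the first principal component (52.1% of the variance) the vitamin replicates 1 to 3 lay at 152, 58.49 and 127.2 and the RANKL replicates at -59.39, -25.9 and -55.11. Macrophage markers were present in all groups, with a summed FPKM (fragment counts divided by transcript length and depth) of 16800 to 24500 with RANKL and 4600 to 11700 with the vitamins, sums made mostly of Lyz2. Of the 10 markers, 7 were lower with the vitamins and 1, Cd68, was higher (549, 575 and 534 FPKM with RANKL against 789, 683 and 681). Osteoclast markers summed to 489 to 1020 with RANKL and 70.4 to 100.0 with the vitamins. Of the 10 osteoclast markers, 8 were lower with the vitamins. Itgb3 was called higher (log2 fold change 2.08, edgeR adjusted p = 0.0186), although its FPKM values overlapped between the groups. Atp6v0d2 was not called and overlapped too. Neutrophil markers summed to 11.4 to 149 with RANKL and 0.551 to 1.72 with the vitamins, and B cell markers to 7.16 to 10.0 and 0.053 to 0.808. In bulk RNA, fewer cells of a type and less RNA per cell cannot be told apart.

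Outside the RANKL response, the vitamins changed about as many genes upward as downward. Of the 16388 genes, 5402 (33.0%) passed the test (edgeR's quasi-likelihood test, adjusted p under 0.05), 2694 of them higher (16.4%) and 2708 lower (16.5%) in the vitamin group. These genes made up 94.4% of the 5725 genes called in all, beside 96.4% of the genes tested, and among the 614 genes set apart 323 (52.6%) were called. The falls were larger than the rises: the median size of the log2 fold change was 1.27 among the lower genes and 0.87 among the higher ones. At least 2-fold changes numbered 1108 upward (6.76%) and 1690 downward (10.3%), and at least 32-fold changes 45 and 211. By limma on log2(FPKM + 1), at least 2-fold changes were 496 and 850. Of the genes outside the RANKL response, 45.4% had FPKM values that did not overlap between the groups.

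The number of calls depended on single libraries. Without vitamin replicate 2, 3176 genes were higher and 3828 lower (2548 of them at least 2-fold lower), and the median log2 distance from the RANKL mean was 1.09, 0.50 and 0.97 for the higher genes in vitamin replicates 1 to 3. Calls fell to 1560 higher and 1560 lower without RANKL replicate 1, to 1715 and 1648 without RANKL replicate 3, to 1702 and 1748 without vitamin replicate 1, and to 1586 and 1539 without vitamin replicate 3. With limma on log2(FPKM + 1), 38.4% of the calls were higher in place of 49.9%, and with a pseudocount of 0.1 it was 36.7%, where the median of all genes shifted from -0.03 to -0.15.

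**Figure D1:**
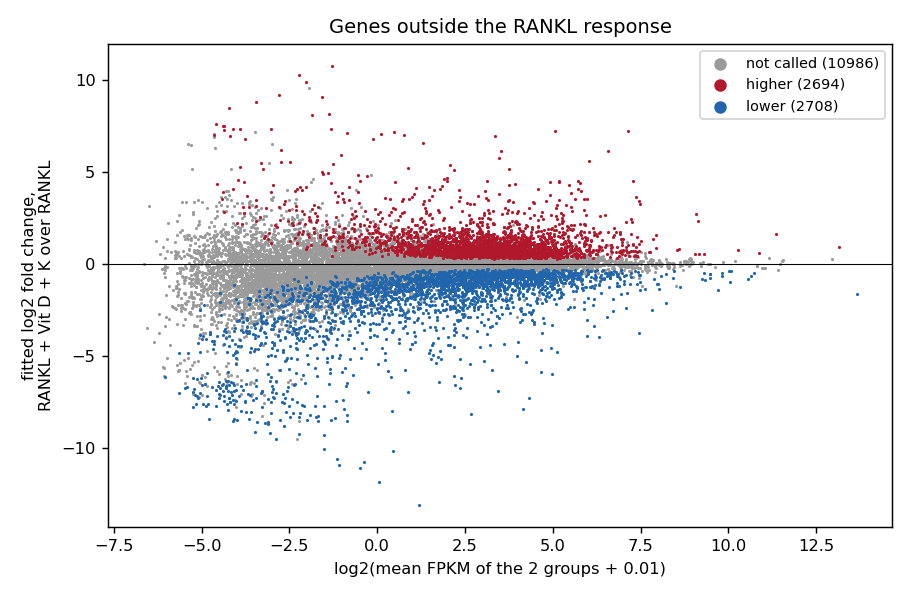
Fitted log2 fold change of the RANKL + Vit D + K group over the RANKL group (vertical axis) against the mean FPKM of both groups on a log2 scale with a pseudocount of 0.01 (horizontal axis), 1 point for each of the 16388 genes outside the RANKL response. Called genes are coloured (2694 higher, 2708 lower), and the far lower points at the left are genes with few or no counts in the vitamin libraries, whose fitted values are not bounds.

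Rises and falls differed in level and kind of gene. Of the 4097 genes with the highest mean level, 30.5% were higher and 18.7% lower. Of the 4097 genes with the lowest mean level, 2.61% were higher and 10.2% lower. Genes with a protein-coding transcript were higher in 20.3% and lower in 18.4%. Those without one were higher in 5.21% and lower in 11%. The genomic span of the higher genes was longer, with a median of 32.3 kb against 14.5 kb for the lower genes and 11.9 kb for those not called. None of the 35 genes of the mitochondrial genome was higher (0 genes), and 14 of them were lower.

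The 15 largest rises were led by Rgs1 and Gdf15, and these genes were low in both other groups. Rgs1 (chromosome 1, 144242296 to 144249242, minus strand, GRCm38), which speeds the shutdown of G protein signals, had an FPKM of 0.567, 0.673 and 0.315 in RANKL replicates 1 to 3 and 111, 18.7 and 71.4 in the vitamin replicates, a log2 fold change of 7.22 (SE 0.74, edgeR adjusted p = 0.000486). Gdf15 (chromosome 8, 70629393 to 70632456, minus strand), a secreted stress cytokine of the TGF-β family, had an FPKM of 1.94, 2.87 and 1.72 with RANKL and 416, 86.8 and 333 with the vitamins (a log2 fold change of 7.21, SE 0.65, edgeR adjusted p = 0.000329). In both genes vitamin replicate 2 was the lowest of its group. Groups that did not overlap were a condition of the selection for all 15. Cox6a2 (chromosome 7, 128205435 to 128206387, minus strand), the muscle form of a cytochrome c oxidase subunit, was between 0.118 and 0.213 FPKM with RANKL and at 28.9, 8.81 and 23.5 with the vitamins. Plk2, a stress-responsive polo-like kinase, rose from 3.36, 3.37 and 2.39 FPKM to 297, 52.7 and 215.

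The other 11 of the 15 largest rises covered several functions. Gadd45a, a growth arrest and DNA damage protein, was at 2.80, 2.41 and 3.63 FPKM with RANKL and at 183, 57.0 and 146 with the vitamins. Aqp9, a water and glycerol channel, was at 0.139, 0.787 and 0.177 FPKM with RANKL and at 24.9, 19.6 and 23.5 with the vitamins. Soat2, which esterifies cholesterol, had a log2 fold change of 5.36 (SE 0.43) and Slc1a4, a neutral amino acid transporter, of 5.09 (SE 0.41). In Aqp9, Soat2 and Slc1a4 the 3 vitamin libraries lay close together. Tent5c (a poly(A) polymerase), Plcxd2, Mreg, Gem (a small GTPase), Dusp14 (a phosphatase of MAP kinases), Ccbe1 and Sh2d6 had log2 fold changes between 5.17 and 7.16, and vitamin replicate 2 was the lowest of the 3 vitamin libraries in all of them. Means in PBS were also far below the vitamin libraries, for example 3.20 FPKM for Plk2, 0.084 for Aqp9 and 6.78 for Gdf15.

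**Figure D2:**
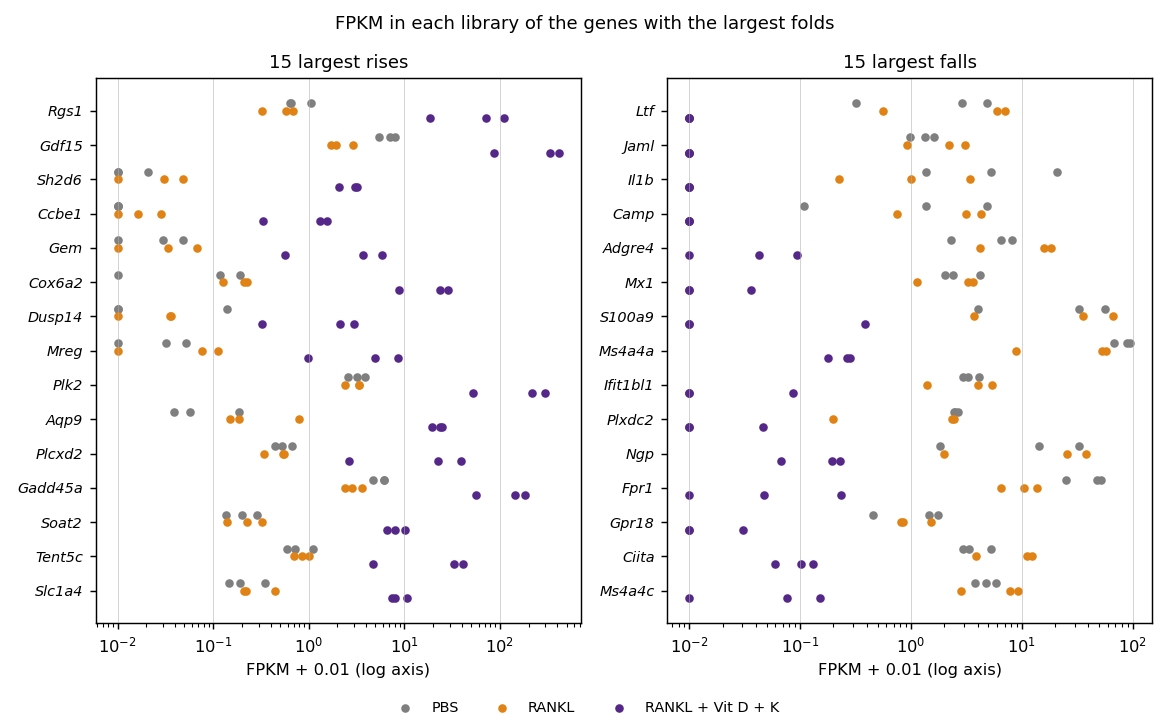
FPKM in each of the 9 libraries (log axis, with 0.01 added so that zeros can be drawn) of the 15 genes with the largest rise and the 15 with the largest fall outside the RANKL response. Each point is a library. Vitamin libraries lie to the right of both other groups on the left panel and to the left of them on the right panel. The selection required this for RANKL but not for PBS.

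The 8 largest gains in FPKM were in Ftl1, Fth1, Sqstm1, Spp1, Gpnmb, Lgals3, Ccl3 and Atf4, of which Atf4 is described with the stress genes. Ftl1 and Fth1, the light and heavy chains of ferritin, rose from 6730, 6980 and 6600 to 13200, 10000 and 11100 FPKM and from 1470, 1140 and 1590 to 4830, 2560 and 4060 FPKM. The call of Ftl1 ended in limma (adjusted p = 0.0539 and 0.0641 with pseudocounts of 1 and 0.1). Sqstm1 (p62), the receptor that carries cargo to autophagosomes, rose from 160, 174 and 142 to 1290, 502 and 1010 FPKM (log2 fold change 2.74, SE 0.34, edgeR adjusted p = 0.000956). Spp1 (osteopontin) was at 163, 281 and 167 FPKM with RANKL and at 913, 945 and 899 with the vitamins, so its vitamin libraries differed little. The galectin Lgals3 (log2 fold change 0.77) and the chemokine Ccl3 (log2 fold change 4.51) also gained. Gpnmb, a glycoprotein of phagocytes, gained 0.60 on the log2 scale, but its call was lost in 7 of the 9 fits that left out 1 library (edgeR adjusted p up to 0.123, reached without vitamin replicate 1) and held only without PBS replicate 2 or vitamin replicate 2.

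**Figure D3:**
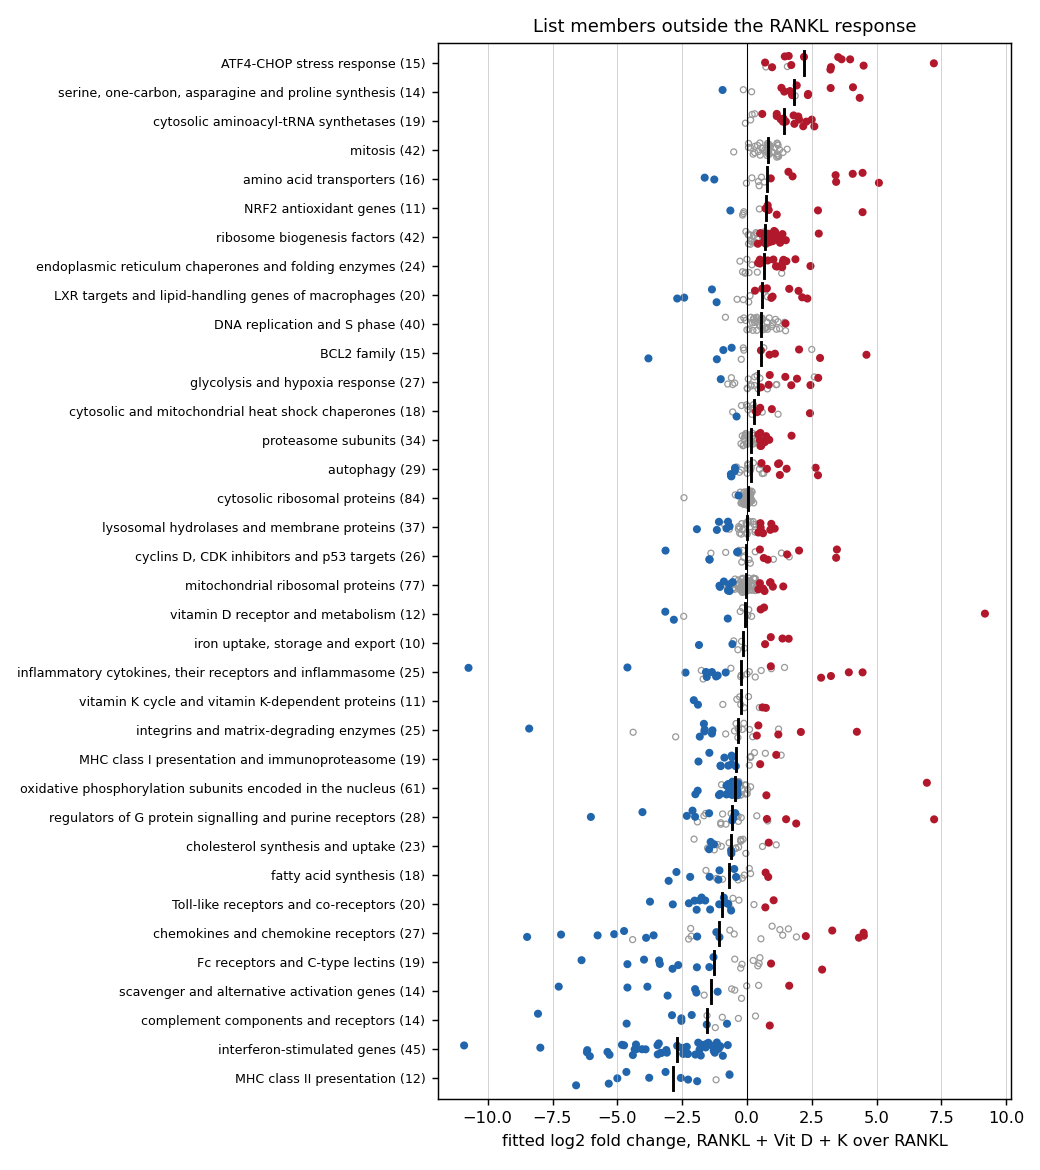
Fitted log2 fold change of the vitamins over RANKL for the tested members of 36 gene lists outside the RANKL response (number of members in brackets). Of all genes outside the RANKL response, 16.4% were called higher and 16.5% lower. Filled points passed the test (red higher, blue lower), open points did not, fitted values of genes with no count in a group are not bounds, and black bars are list medians, which run from -2.84 for MHC class II presentation to 2.20 for the ATF4-CHOP list.

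Genes of the integrated stress response rose together. In this response, stalled translation initiation favours the synthesis of ATF4, which with CHOP and C/EBP proteins turns on genes of amino acid supply and of stress. Of 15 members of the ATF4-CHOP list outside the RANKL response, 13 were higher and 0 lower, with a median log2 fold change of 2.20 beside -0.03 for all genes outside the RANKL response. Atf4 itself (chromosome 15, 80255184 to 80257541, plus strand) was at 33.9, 48.0 and 34.1 FPKM with RANKL and at 408, 216 and 343 with the vitamins (a log2 fold change of 3.24, SE 0.27, edgeR adjusted p = 0.00027). Ddit3, which encodes CHOP, was at 4.84, 5.37 and 4.88 FPKM with RANKL and at 122, 68.7 and 113 with the vitamins. All vitamin libraries were thus above all RANKL libraries, with replicate 2 the lowest. Chac1, a glutathione-degrading enzyme, differed in pattern: vitamin replicate 2 was the highest at 35.5 FPKM, against 5.69 and 6.26 in replicates 1 and 3 and 0.941, 1.83 and 0.41 with RANKL. Trib3, a pseudokinase that restrains ATF4 and AKT, belonged to the genes RANKL changed and rose with the vitamins by 7.62 on the log2 scale (SE 0.32).

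Enzymes that make serine, one-carbon units and asparagine followed the same direction. Of 14 members, 10 were higher and 1 lower (median log2 fold change 1.80). The 1 lower member was not called without PBS replicate 1, RANKL replicate 1 or 3, or vitamin replicate 1 or 3. Phgdh, the first enzyme of serine synthesis, was at 0.809, 3.02 and 0.952 FPKM with RANKL and at 25.2, 36.4 and 25.4 with the vitamins. Asns, which makes asparagine, was at 3.78, 12.4 and 3.71 FPKM with RANKL and at 103, 99.6 and 95.8 with the vitamins. RANKL replicate 2 was the highest of its group for both and still below every vitamin library. Mthfd2, a mitochondrial folate enzyme, rose by 3.23 on the log2 scale (SE 0.30). Aldh1l2, a gene that RANKL changed, rose by 4.04.

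Some amino acid carriers and most of the enzymes that charge tRNAs rose as well. Of 16 amino acid transporters, 8 were higher and 2 lower (median log2 fold change 0.79, and 1.25 without RANKL replicate 3). The 8 of 16 higher stand beside 16.4% of all genes outside the RANKL response. The 2 of 16 lower (12.5%) stand beside 16.5% of all genes there. Slc7a11, the cystine carrier that feeds glutathione synthesis, was at 3.29, 2.28 and 4.81 FPKM with RANKL and at 81.0, 43.5 and 80.5 with the vitamins (a log2 fold change of 4.46, SE 0.46, edgeR adjusted p = 0.000501). Slc7a5, the large neutral amino acid carrier, rose by 4.08 and Slc7a1, the cationic carrier, by 3.44. Of 19 cytosolic aminoacyl-tRNA synthetases, 15 were higher and 0 lower (median 1.41). Aars, for alanine, was at 8.60, 14.2 and 9.01 FPKM with RANKL and at 62.6, 48.5 and 60.5 with the vitamins. Eprs, Cars and Sars rose by 2.50, 2.29 and 2.17 on the log2 scale. The counts of higher members of these 4 lists stayed within a factor of 1.5 in each fit that left out 1 library, and without vitamin replicate 2 they had 13, 10, 8 and 15 members higher.

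Promoters of these lists were searched for the C/EBP-ATF element, the composite site of ATF4 and C/EBP proteins, as TGATGCAA on both strands in RefSeq windows of 300 bases (GRCm38.p6, 250 bases before to 50 after the start). It was found in 4 of 13 windows of the ATF4-CHOP list (30.8%), 3 of 12 of the tRNA synthetases (25%), 3 of 11 of the transporters (27.3%) and 2 of 13 of the serine and asparagine list (15.4%). The share was 0.647% of 10514 windows of genes outside the RANKL response, 0.988% of the higher genes, 0.719% of the lower genes and 0.929% of all 27025 windows. Not every list member with the element was called higher. Slc7a7, an amino acid transporter, fell by 1.26 on the log2 scale. Pycr1, a proline enzyme, had a log2 fold change of 1.86 (SE 0.77) that did not pass the test (edgeR adjusted p = 0.0917). The stretches of Chac1, Slc7a11 and Aars are shown because they hold the element upstream of the start, in capitals, 5′ to 3′ on the strand of the gene. They lie at chr2:119351009-119351098 (Chac1, plus strand), chr3:50443630-50443719 (Slc7a11, minus strand) and chr8:111033690-111033779 (Aars, plus strand).
Chac1: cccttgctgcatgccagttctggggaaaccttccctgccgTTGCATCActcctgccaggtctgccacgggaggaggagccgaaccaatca
Slc7a11: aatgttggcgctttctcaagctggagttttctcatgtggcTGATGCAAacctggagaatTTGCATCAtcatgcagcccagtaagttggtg
Aars: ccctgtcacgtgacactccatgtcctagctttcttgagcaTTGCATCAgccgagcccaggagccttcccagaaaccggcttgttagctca
Slc7a11 held the element on both strands, and Chac1 and Aars on the opposite strand. A match is a description of letters and not evidence of binding.

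Chaperones of the endoplasmic reticulum rose less. Of 24 members, 15 were higher and 0 lower (median log2 fold change 0.65), with 1 lower without vitamin replicate 2. Hspa5 (BiP), the main chaperone of this compartment, was at 135, 141 and 146 FPKM with RANKL and at 400, 208 and 352 with the vitamins (a log2 fold change of 1.36, SE 0.25, edgeR adjusted p = 0.00466). Ero1l, the oxidase that drives disulfide formation, rose by 2.45 and Ern1, the stress sensor IRE1, by 1.87. In the list of cytosolic and mitochondrial heat shock chaperones 5 of 18 were higher and 1 lower. That is 27.8% and 5.56%, beside 16.4% and 16.5% of all genes outside the RANKL response. Hspa9, the mitochondrial HSP70, rose by 2.43 on the log2 scale (SE 0.30), while Hspa1a, the inducible cytosolic HSP70, overlapped between groups (0.729, 1.16 and 0.87 FPKM against 3.49, 0.495 and 1.48). The count of 5 fell to 1 without RANKL replicate 1 or 3 or vitamin replicate 1 and to 2 without vitamin replicate 3, and rose to 9 without RANKL replicate 2, and the 1 lower member was not called without any 1 RANKL library or vitamin replicate 3.

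Ribosome assembly and the ribosome itself parted. Of 42 ribosome biogenesis factors, 25 were higher and 0 lower (median log2 fold change 0.68), a count that fell to 16 without RANKL replicate 1 or 3. Gnl3 (nucleostemin) was at 4.10, 6.14 and 3.38 FPKM with RANKL and at 39.2, 11.1 and 30.4 with the vitamins. Nop58, a core protein of small nucleolar particles, rose by 1.5. Of the 84 cytosolic ribosomal proteins, 0 were higher and 1 lower by edgeR (Rpl15, a call that ended without RANKL replicate 1 or 3 or vitamin replicate 3), and the median was 0.03 (-0.07 without vitamin replicate 1). Without vitamin replicate 2, 8 of them were higher and the median was 0.13. At an unadjusted p under 0.05 the counts were also 0 higher and 1 lower, and DESeq2 called the same numbers, whereas limma called 0 higher and 7 lower with either pseudocount.

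Some antioxidant and some iron genes rose. Of the 22 tested genes of the NRF2 list, 11 belonged to the RANKL response, and of the 11 others 6 were higher and 1 lower (median log2 fold change 0.72). That is 54.5% and 9.09%, beside 16.4% and 16.5% of all genes outside the RANKL response. Without RANKL replicate 1 the counts were 3 and 0, and the 1 lower gene was called in no fit that left out 1 library, except that without vitamin replicate 2. Nfe2l2, which encodes NRF2, gained 0.84 (SE 0.22, edgeR adjusted p = 0.0199), a call that ended without RANKL replicate 1 or 2 or vitamin replicate 1 or 3 (edgeR adjusted p up to 0.0643). Among the genes RANKL changed, Srxn1 (sulfiredoxin) rose by 1.51 and Txnrd1 (thioredoxin reductase) by 1.36. Of 10 iron genes, 4 were higher and 2 lower, with a median of -0.16 that was 0.04 without RANKL replicate 1 and -0.02 without vitamin replicate 2. The 4 of 10 higher stand beside 16.4% of all genes outside the RANKL response. The 2 of 10 lower (20.0%) are near the 16.5% of all genes there. Besides ferritin, Slc11a2, a ferrous iron importer, rose by 1.37, whereas Hfe, which takes part in iron sensing, fell by 1.85 on the log2 scale. Tfrc, the transferrin receptor, did not pass the test (log2 fold change -0.35, SE 0.15).

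Autophagy and lysosome genes did not move as a group. Of 29 autophagy genes, 8 were higher (27.6%) and 5 lower (17.2%), and of 37 lysosomal genes 9 (24.3%) and 6 (16.2%), beside 16.4% and 16.5% of all genes outside the RANKL response. Single receptors of selective autophagy stood out beside Sqstm1: Optn (optineurin) rose from 2.11, 2.78 and 2.75 to 20.3, 5.69 and 15.9 FPKM, and Tax1bp1 rose by 1.53 on the log2 scale. Lamp1, an abundant lysosomal membrane protein, was at 832, 632 and 789 FPKM with RANKL and at 714, 677 and 660 with the vitamins, so its groups overlapped. The protease Ctsf fell by 1.93. The counts of higher autophagy genes ranged from 4 (without RANKL replicate 3) to 15 (without vitamin replicate 2), and those of lysosomal genes from 1 (without RANKL replicate 3) to 13 (without vitamin replicate 2), with 3 lysosomal genes without RANKL replicate 1 or vitamin replicate 3. Lower autophagy genes numbered 2 without RANKL replicate 1 or 3, 3 without vitamin replicate 1 and 1 without vitamin replicate 3. Higher autophagy genes numbered 5 without RANKL replicate 1 or 2 or vitamin replicate 1 or 3. Of 34 proteasome subunits, 9 were higher (26.5%, beside the same 16.4%) and 0 lower, led by Psmd8 with 1.72. The 9 fell to 4 without RANKL replicate 1 and to 5 without RANKL replicate 3 or vitamin replicate 1 or 3, and 2 were lower without vitamin replicate 2.

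The 15 largest falls left most of these genes at or near 0 with the vitamins. Ms4a4a (chromosome 19, 11375523 to 11392790, plus strand), a membrane protein of macrophages, was at 52.4, 8.88 and 57.7 FPKM with RANKL and at 0.253, 0.272 and 0.169 with the vitamins (a log2 fold change of -7.26, SE 0.77, edgeR adjusted p = 0.000581). Adgre4, an adhesion receptor of macrophages, was at 18.4, 4.18 and 15.7 FPKM with RANKL and at 0.0, 0.0325 and 0.0847 with the vitamins. RANKL replicate 2 was the lowest of its group for both. It lay above every vitamin library, which was a condition of the selection. Fpr1, the receptor for bacterial formyl peptides, fell from 13.8, 6.49 and 10.4 FPKM to 0.0376, 0.222 and 0.0. Ltf, Jaml, Il1b and Camp had no count in any vitamin library and were at least 323-fold, 137-fold, 63.4-fold and 42.5-fold lower, computed against a floor of 3 counts per library. Il1b, the cytokine interleukin 1β, varied among the RANKL libraries (0.992, 0.213 and 3.40 FPKM) and had a mean of 9.10 FPKM in PBS. Its bound was 24.6-fold without RANKL replicate 3, and limma on log2(FPKM + 1) did not call it (adjusted p = 0.259). Jaml, an adhesion protein of leukocytes, was at 2.19, 0.921 and 3.07 FPKM with RANKL. Ms4a4c, Gpr18, Plxdc2 and Ifit1bl1 fell by 6.42, 6.63, 6.93 and 6.94 on the log2 scale.

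Of the 15 largest falls, 4 were markers of neutrophils: Ltf (lactoferrin), Camp (cathelicidin), Ngp and S100a9. S100a9, a subunit of calprotectin, was at 36.0, 66.9 and 3.66 FPKM with RANKL and at 0.0, 0.375 and 0.0 with the vitamins. Ngp was at 25.7, 37.6 and 1.98 FPKM and at 0.183, 0.217 and 0.0574. RANKL replicate 3 was far below the other RANKL libraries in both genes. Of 9 tested neutrophil markers, 7 were lower with the vitamins and 0 higher. Their summed FPKM in PBS was 11.1 to 129, close to the 11.4 to 149 with RANKL, and the part of a small number of neutrophils in these 4 falls was not tested.

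The 8 largest losses in FPKM were in Lyz2, mt-Nd1, Ctss, S100a4, Tmsb4x, mt-Cytb, Mpeg1 and C1qb. Lyz2 (chromosome 10, 117277331 to 117282321, minus strand), lysozyme, was at 22200, 15000 and 22200 FPKM with RANKL and at 3190, 10200 and 4850 with the vitamins (a log2 fold change of -1.61, SE 0.34, edgeR adjusted p = 0.00795). C1qb, a chain of complement C1q, was at 580, 353 and 558 FPKM with RANKL and at 73.3, 127 and 112 with the vitamins. Tmsb4x, the actin-binding thymosin β4, was at 1450, 1480 and 1410 FPKM with RANKL and at 477, 984 and 558 with the vitamins. Groups did not overlap in any of the 8 genes, which was a condition of the selection. The calls of Lyz2, C1qb and Tmsb4x held when any library was left out, and those of the other 5 were lost in some of these fits. This was so for Ctss (-0.67, edgeR adjusted p up to 0.0634) and Mpeg1 (-0.76, up to 0.0784), both without RANKL replicate 1 or 3. S100a4 (-1.43) reached 0.0808 without vitamin replicate 3 and was also lost without vitamin replicate 1 or RANKL replicate 1 or 3, and mt-Cytb (-0.49) was lost without vitamin replicate 3 (edgeR adjusted p = 0.0577). The call of mt-Nd1 (-0.82) was lost in 8 of 9 such fits and held only without vitamin replicate 2. Mean FPKM of mt-Nd1 was 1130 in PBS, 2000 with RANKL and 1040 with the vitamins. That of S100a4 was 571, 1230 and 426, and that of mt-Cytb 1430, 2070 and 1340. The vitamin means of these genes thus lay closer to PBS than to RANKL. For Lyz2, Ctss, Tmsb4x, Mpeg1 and C1qb the PBS means were 26700, 2050, 1120, 1230 and 652. Their vitamin means were 6070, 1170, 673, 496 and 104.

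Interferon-stimulated genes fell together. These genes are switched on downstream of the interferon receptor and encode antiviral proteins. All 45 listed members that were tested lay outside the RANKL response, and 45 of 45 were lower, with a median log2 fold change of -2.69. In the fits that left out 1 library, 41 to 45 were lower and 0 higher. Ifit1, which binds foreign RNA ends, was at 7.83, 3.24 and 7.72 FPKM with RANKL and at 0.0189, 0.332 and 0.0752 with the vitamins (a log2 fold change of -5.38, SE 0.79, edgeR adjusted p = 0.00188). Mx1, an antiviral GTPase, was at 3.61, 1.13 and 3.29 FPKM with RANKL and at 0.0, 0.0 and 0.026 with the vitamins. Mx2 had no count in the vitamin libraries and was at least 71.4-fold lower. RANKL replicate 2 was the lowest of its group in each of these genes, and all RANKL libraries lay above all vitamin libraries. The mean log2 CPM (counts scaled to library size) over the 45 genes was 4.86, 3.86 and 5.08 with RANKL, 1.18, 1.89 and 1.34 with the vitamins and 4.65, 4.21 and 4.26 in PBS.

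Promoters of this list held the core letters of the interferon-stimulated response element in most cases. The letters GAAANNGAA, searched on both strands and counted with overlaps, were found in 23 of 34 windows of the list (67.6%), against 7.49% of genes outside the RANKL response, 6.42% of higher genes, 9.96% of lower genes and 8.57% of all windows. Stretches of 90 bases from the windows of Ifit1 (chr19:34640740-34640829, plus strand) and Ifit3 (chr19:34583334-34583423, plus strand) are shown, since they carry several copies each, in capitals. A further match of Ifit3 lies beyond the stretch shown.
Ifit1: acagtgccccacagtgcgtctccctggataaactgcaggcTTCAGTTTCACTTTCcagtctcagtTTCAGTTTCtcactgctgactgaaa
Ifit3: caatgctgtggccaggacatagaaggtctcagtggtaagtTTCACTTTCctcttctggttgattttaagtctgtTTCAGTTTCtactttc
The corresponding stretch of Ifit3b (chr19:34607730-34607819, plus strand) differed from that of Ifit3 in 0 of 90 bases. Ifit3 and Ifit3b are close copies, so their counts may share reads, and they fell by 6.17 and 6.16 on the log2 scale.

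MHC class II genes fell as well. Of 12 members outside the RANKL response, 10 were lower and 0 higher (median log2 fold change -2.84). Ciita (chromosome 16, 10480059 to 10526426, plus strand), the master activator of this gene family, was at 11.1, 3.88 and 12.4 FPKM with RANKL and at 0.0491, 0.121 and 0.092 with the vitamins (a log2 fold change of -6.59, SE 0.57, edgeR adjusted p = 0.000302). H2-Aa, the α chain of I-A, was at 35.6, 11.2 and 45.8 FPKM with RANKL and at 0.265, 1.35 and 1.10 with the vitamins. H2-Eb1 and H2-Ab1, β chains of class II molecules, fell by 5.33 and 4.65 on the log2 scale. In PBS the means were 3.83 FPKM for Ciita and 9.46 for H2-Aa, so both lay above the vitamin group there too. Markers of other cells that carry class II molecules were also lower. Dendritic cell markers summed to 0.515 to 0.986 FPKM with RANKL and 0.0315 to 0.181 with the vitamins, with 1 of 5 tested markers called lower (Flt3), and both tested B cell markers fell (Cd79b by 5.64, Ighm by 4.41 on the log2 scale). Their part in the class II values was not tested. In the class I list, 10 of 19 were lower and 2 higher (median -0.43), and without vitamin replicate 2 the counts were 9 and 5. The 2 higher members were 0 without RANKL replicate 1 and 1 without vitamin replicate 3. The falls included the immunoproteasome subunits Psmb10 (-1.87) and Psmb9 (-1.45), whereas H2-K1, a classical class I heavy chain, overlapped between groups (286, 218 and 286 FPKM against 264, 227 and 269).

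**Figure D4:**
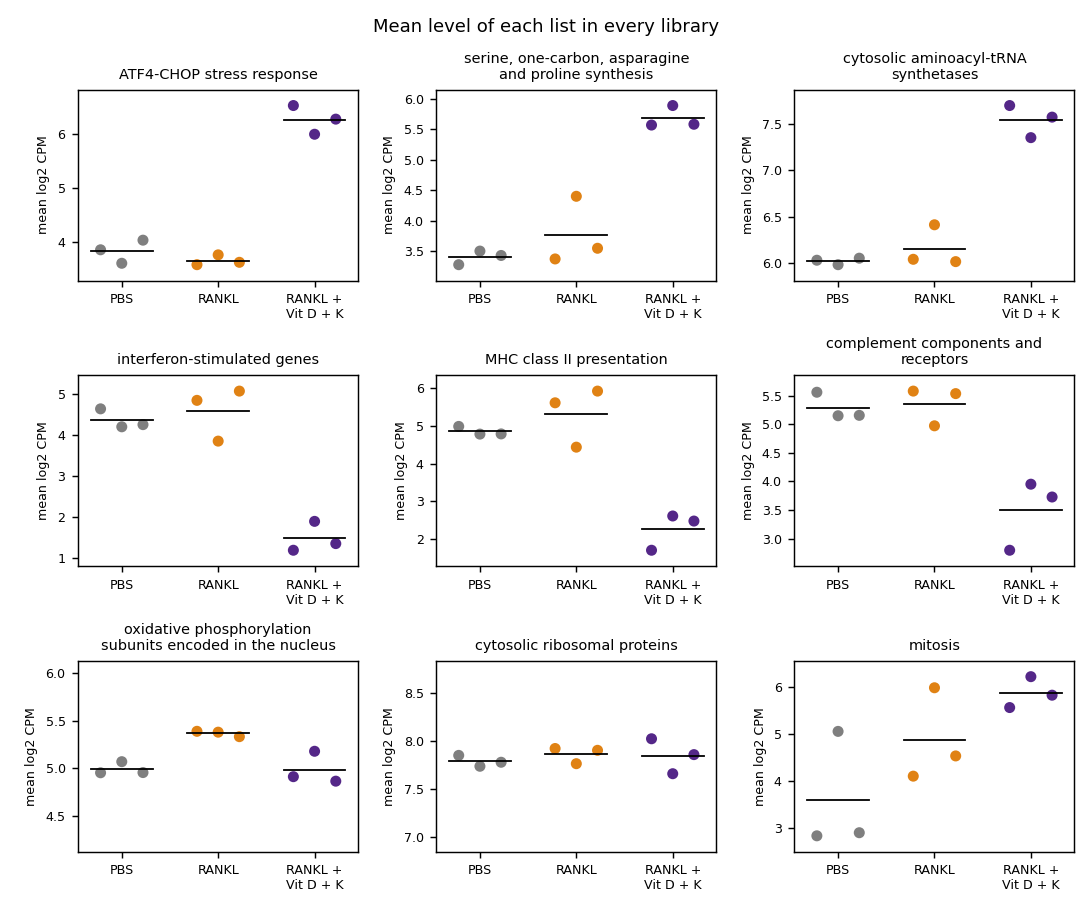
Mean log2 CPM of the members of 9 lists outside the RANKL response in each library (points), with the group mean as a line. Each panel has its own vertical range. The vitamin libraries stand apart from both other groups in the upper 6 panels, and RANKL replicate 2 lies among the vitamin libraries in the mitosis panel.

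Chemokine and cytokine genes were called lower more often than all genes, and single members rose. Of 27 chemokine genes, 5 were higher (18.5%, near the 16.4% of all genes outside the RANKL response) and 10 lower (37.0%, beside 16.5%). Ccr2, the receptor that recruits monocytes, was at 26.7, 11 and 19.5 FPKM with RANKL and at 0.125, 0.735 and 0.14 with the vitamins. Ccl24 and Cxcl9 had no count in the vitamin libraries and were at least 13.2-fold and 5.30-fold lower. The bound of Cxcl9 rested on RANKL replicate 3 and was 2.92-fold without it, and limma on log2(FPKM + 1) did not call it (adjusted p = 0.0848). In the opposite direction, Ccl3, an inflammatory chemokine, was at 19.2, 16.5 and 9.57 FPKM with RANKL and at 455, 116 and 324 with the vitamins. Of 25 genes of inflammatory cytokines, their receptors and the inflammasome, 5 were higher (20.0%) and 9 lower (36.0%), and 8 and 11 without vitamin replicate 2. Il10, the anti-inflammatory cytokine, fell by 4.61, and Csf1, which encodes M-CSF, rose from 0.163, 0.0992 and 0.148 to 4.19, 0.868 and 2.95 FPKM. Ptgs2 (cyclooxygenase-2) rose by 3.93 on the log2 scale (SE 0.38). Ccl2 and Tnf did not pass the test: Tnf was at 2.05, 8.08 and 1.63 FPKM with RANKL and at 1.93, 17.0 and 2.24 with the vitamins, with replicate 2 the highest in both groups.

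Receptors that sense and bind microbes were lower in most cases. Of 20 Toll-like receptors and co-receptors, 14 were lower and 2 higher (median log2 fold change -0.98). The 2 higher receptors were 1 without any 1 RANKL library or vitamin replicate 1, and 0 without vitamin replicate 3. Tlr8, a sensor of RNA in endosomes, was at 53.6, 36.6 and 55.4 FPKM with RANKL and at 0.875, 7.23 and 2.31 with the vitamins (a log2 fold change of -3.74, SE 0.60, edgeR adjusted p = 0.00269). Tlr9, which senses DNA, fell by 2.86 and Tlr1 by 2.24. Among 19 Fc receptors and C-type lectins, 10 were lower and 2 higher (1 without RANKL replicate 1 or 3 or vitamin replicate 3). Clec4a1 (DCIR4) was at 177, 112 and 165 FPKM with RANKL and at 4.59, 14.5 and 8.0 with the vitamins. Fcgr1, the high-affinity receptor for immunoglobulin G, was at 12.9, 5.71 and 13.6 FPKM with RANKL and at 1.3, 1.28 and 1.43 with the vitamins. Both receptors were thus lower in every vitamin library.

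Complement and scavenger genes followed. Of 14 complement genes, 8 were lower and 1 higher (median -1.54), and 10 and 2 without vitamin replicate 2 (median -2.45). C1qa, a chain of the C1q molecule that binds immune complexes, was at 188, 120 and 189 FPKM with RANKL and at 9.37, 27.9 and 25 with the vitamins. Vsig4, a complement receptor of tissue macrophages, had no count with the vitamins and was at least 9.86-fold lower. Of 14 scavenger and alternative activation genes, 7 were lower and 1 higher (median -1.39). Ms4a6c fell from 128, 65.7 and 142 to 6.13, 22.5 and 9.49 FPKM. Mgl2, a galactose-binding lectin that is also on the list of C-type lectins, fell by 4.61 on the log2 scale.

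Respiratory chain genes were lower in part, mostly by less than 2-fold. Of 61 subunits encoded in the nucleus and outside the RANKL response, 35 were lower and 2 higher (median log2 fold change -0.48). That is 57.4% and 3.28%, beside 16.5% and 16.4% of all genes outside the RANKL response. Sdhd, a membrane anchor of succinate dehydrogenase, was at 112, 119 and 103 FPKM with RANKL and at 40, 64.0 and 40.1 with the vitamins (a log2 fold change of -1.08, SE 0.14, edgeR adjusted p = 0.00112). Cox6a2 was 1 of the 2 that rose, against the direction of its list. The mean log2 CPM of the list was 5.39, 5.38 and 5.33 with RANKL, 4.91, 5.18 and 4.87 with the vitamins and 4.95, 5.07 and 4.96 in PBS. The count of 35 rested on single libraries: it was 15, 23 and 18 without RANKL replicate 1, 2 or 3, and 17 and 13 without vitamin replicate 1 or 3. Mitochondrial ribosomal proteins did not move as a group (8 higher and 7 lower of 77, which is 10.4% and 9.09%), with 11 and 19 without vitamin replicate 2. Their counts were 6 and 3 without RANKL replicate 2, and 3 and 2 without RANKL replicate 1 or 3 or vitamin replicate 1 or 3.

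In glycolysis and the hypoxia response, 8 of 27 were higher and 1 lower (median 0.43). That is 29.6% and 3.7%, beside 16.4% and 16.5% of all genes outside the RANKL response. Without vitamin replicate 2, 9 were higher and 5 lower, and the median was 0.15. Vegfa, the angiogenic factor, was at 10.6, 4.25 and 17.1 FPKM with RANKL and at 89.8, 27.4 and 75.3 with the vitamins. Hk3, the myeloid hexokinase, rose by 1.71 and Ndrg1, a hypoxia marker, by 1.93 on the log2 scale. Hk1 did not pass the test (log2 fold change -0.60, SE 0.21, edgeR adjusted p = 0.0581).

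Lipid genes differed by list. Of 18 fatty acid synthesis genes, 8 were lower (44.4%) and 2 higher (11.1%), beside 16.5% and 16.4% of all genes outside the RANKL response. Their median was -0.71, and -0.46 without RANKL replicate 2. Acaca, the rate-limiting carboxylase, was at 3.17, 3.63 and 3.22 FPKM with RANKL and at 0.578, 1.93 and 0.933 with the vitamins (a log2 fold change of -1.44, SE 0.32, edgeR adjusted p = 0.00915). The count of 8 fell to 2 to 5 in every fit that left out 1 library except that without vitamin replicate 2, where it was 11, and the 2 higher genes were 1 without RANKL replicate 1 or 3 or vitamin replicate 1 or 3. Of 23 cholesterol genes 5 were lower (21.7%, beside 16.5% of all genes outside the RANKL response) and 1 higher, and 14 were lower and 2 higher without vitamin replicate 2, with 3 lower without RANKL replicate 1 and 2 without vitamin replicate 1 or 3. Pmvk, a kinase of the mevalonate pathway, fell by 1.27 on the log2 scale. Among genes of lipid handling, Abca1, the cholesterol exporter, was at 36.3, 24.8 and 33.2 FPKM with RANKL and at 3.94, 4.28 and 5.04 with the vitamins (a log2 fold change of -2.69, SE 0.19, edgeR adjusted p = 0.000158). Pltp, a phospholipid transfer protein, fell by 2.42. Yet 9 of the 20 members of that list, Spp1 among them, were higher (45.0%) and 4 lower (20.0%). The shares of all genes outside the RANKL response were 16.4% and 16.5%. Apoe, which RANKL changed, fell from 752, 216 and 845 to 66.8, 73.9 and 78.2 FPKM.

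Almost no cell cycle gene passed the test in the main fit, which had no replicate block. Of 40 S phase genes, 1 was higher (2.5%, beside 16.4% of all genes outside the RANKL response) and 0 lower, the 1 being Cdt1, a licensing factor, with a log2 fold change of 1.45. Of 42 mitosis genes 0 were called by edgeR in that fit. With replicate number as a block in the edgeR fit, 20 S phase and 22 mitosis genes were higher. The labels do not say whether replicate numbers pair the samples. The median log2 fold changes of 0.56 and 0.83 depended on single libraries. At an unadjusted p under 0.05, 11 S phase genes were higher and 1 lower, and 0 mitosis genes were higher and 1 lower. DESeq2 called 8 S phase genes and 0 mitosis genes higher and 1 mitosis gene lower, and limma called 0 mitosis genes higher and 1 lower. Mki67, the proliferation marker, was at 15.5, 65.9 and 21.6 FPKM with RANKL, at 49.8, 75.1 and 68.5 with the vitamins, and had a mean of 16.3 in PBS. RANKL replicate 2 lay within the vitamin group, and the mean log2 CPM of the mitosis list was 4.10, 5.98 and 4.53 in RANKL replicates 1 to 3 and 5.55, 6.21 and 5.82 in the vitamin replicates. Replicate 2 was the highest in each group, PBS included (2.83, 5.05 and 2.89). Without RANKL replicate 2, 23 S phase and 7 mitosis genes were higher, with medians of 1.33 and 1.67. The S phase median was 0.31 without RANKL replicate 3, 0.35 without RANKL replicate 1 and 0.37 without vitamin replicate 2, and the mitosis median was 0.48 without RANKL replicate 1. In these fits the counts were at most 1 in each direction.

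Single survival genes rose and others fell. Of 15 members of the BCL2 family, 6 were higher (40%, beside 16.4% of all genes outside the RANKL response) and 4 lower (26.7%, beside 16.5%). Bcl2, which blocks cell death, was at 0.199, 0.591 and 0.214 FPKM with RANKL and at 7.24, 5.06 and 9.29 with the vitamins (a log2 fold change of 4.61, SE 0.47, edgeR adjusted p = 0.00049), and Bcl2l1 (BCL-XL), another blocker, rose by 2.82. Among the members that drive cell death, Bbc3 (PUMA) rose by 2.01 and Bmf fell from 17.6, 13.3 and 18.2 to 0.318, 2.32 and 0.713 FPKM. In the list of D-type cyclins, CDK inhibitors and p53 targets, 7 of 26 were higher (26.9%) and 5 lower (19.2%, near the background share). Cdkn1c (p57) rose by 3.47 and Sesn1 (sestrin 1) fell by 3.14. The 5 lower genes of that list were 3 without PBS replicate 3 or RANKL replicate 1 and 2 without RANKL replicate 2 or 3 or vitamin replicate 1 or 3, and the 7 higher genes were 4 without RANKL replicate 1.

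Of 25 integrin and matrix genes outside the RANKL response, 5 were higher and 7 lower (20.0% and 28.0%, beside 16.4% and 16.5% of all genes there), with 3 higher without RANKL replicate 1 or 3 or vitamin replicate 3. Itga1, a collagen-binding integrin chain, fell by 1.35, and Itgb8 had no count in the vitamin libraries and was at least 12.4-fold lower, a bound of 8.19-fold without RANKL replicate 3, and limma did not call it (adjusted p = 0.231 and 0.0938 with pseudocounts of 1 and 0.1). Of 28 regulators of G protein signalling and purine receptors, 4 were higher (14.3%) and 9 lower (32.1%), with 16 lower without vitamin replicate 2, 4 without RANKL replicate 1 or 3, and 5 without vitamin replicate 3. Gpr34, a receptor for lysophosphatidylserine, was at 1.47, 0.576 and 1.57 FPKM with RANKL and at 0.0, 0.0489 and 0.0 with the vitamins. Adora3, an adenosine receptor, fell by 2.32 on the log2 scale, so that Rgs1 and these receptors moved in opposite directions.

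Genes of vitamin D metabolism moved singly. Cyp24a1, the enzyme that degrades calcitriol and a classical target of its receptor, had counts of 39, 113 and 64 in the vitamin libraries and 0 in all RANKL libraries, so it was at least 25-fold higher. Its highest value was in vitamin replicate 2, the library nearest to the RANKL group on the first principal component. Cyp27b1, which makes calcitriol, was filtered out as too low, with counts of 23, 6 and 24 in the vitamin libraries and 0 in the other 6. Vdr, the receptor, was under 0.33 FPKM in all 9 libraries, with counts of 64, 46 and 35 with RANKL and 4, 11 and 0 with the vitamins (a log2 fold change of -3.15, SE 0.87, edgeR adjusted p = 0.0227). That call ended without RANKL replicate 1 (edgeR adjusted p = 0.0738) and without vitamin replicate 1 (0.0663). Cyp27a1, which hydroxylates vitamin D and sterols, fell from 23.8, 11.5 and 21.1 to 1.87, 3.11 and 2.38 FPKM. In this list 3 of 12 were higher and 3 lower, 25% each beside 16.4% and 16.5% of all genes outside the RANKL response, and 1 was lower without RANKL replicate 1.

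On the side of vitamin K, 2 of 11 members were higher and 2 lower, 18.2% each beside 16.4% and 16.5% of all genes outside the RANKL response. The 2 higher members were 0 without RANKL replicate 1 or 3 or vitamin replicate 3, 1 without PBS replicate 2 or 3 or vitamin replicate 1, and 3 without RANKL replicate 2, and the 2 lower ones were 3 without vitamin replicate 1. Ggcx, the carboxylase that uses the vitamin, overlapped between groups (3.82, 3.75 and 4.12 FPKM against 2.75, 3.94 and 3.22). Pros1 (protein S), a carboxylated ligand of TAM receptors, was at 8.47, 6.85 and 7.45 FPKM with RANKL and at 0.821, 3.37 and 0.973 with the vitamins. Mertk, a TAM receptor for apoptotic cells, was at 30.5, 20.3 and 28.8 FPKM with RANKL and at 4.74, 7.49 and 7.39 with the vitamins (a log2 fold change of -1.89, SE 0.21, edgeR adjusted p = 0.000661). Axl, its relative among the genes RANKL changed, fell by 1.93. The ligand and both receptors were therefore lower, while the carboxylase was not called.

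Shares of promoters with a motif are given for the whole response as a description. Windows were found for 10514 of the 16388 genes (64.2%). The E-box CACGTG was in 13.7% of higher, 8.26% of lower and 10.0% of all these genes, and the antioxidant element TGACNNNGC in 18.1%, 13.3% and 14.8%. The cyclic AMP element TGACGTCA was in 3.56% of higher and 1.69% of lower genes, against 3.21% of all. The sites of SREBP (TCACNCCAC, 1.19% and 1.39%) and NF-κB (GGANTTTCC, 1.38% and 1.75%) and the CCAAT box (36.7% and 38.1%) had close shares in higher and lower genes. The E2F site TTTGGCGC was in 1.19% of higher and 0.616% of lower genes. The direct repeat with a gap of 3 that the vitamin D receptor binds was in 0 of the 10514 windows and in 9 of all 27025. Cyp24a1 had no window, so its promoter was not searched. Sites outside the windows were not searched for any gene, so these shares do not show that receptor sites were absent.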

How the data were processed

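The authors deposited 1 table with the count of reads per gene in each library, not normalized, and the FPKM they computed. Per the labels, the submitters' processing notes name cutadapt 1.9, HISAT2 2.0.4, StringTie 1.3.4d and edgeR, and the build hg38, although the coordinates are those of the mouse: 90.2% of the genes have the start and end of GENCODE M21 (GRCm38). The counting program and its use of strand are not given in the sources used here, so genes with close copies or overlapping neighbours are uncertain. A count of 4 occurred 2.22 times as often as its neighbours 3 and 5 on average, so single counts need not be single reads. Floors of 3 counts (at most 4.55e-06% of a library) cover counting error only. Poly(A) RNA was sequenced in paired ends.

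Groups and replicate numbers come from the labels. Counts were tested in R 4.3.3 with edgeR 4.0.16 (filterByExpr, TMM normalization, quasi-likelihood test, all 9 libraries in 1 model, no covariates) with Benjamini-Hochberg adjustment over 17002 genes at 0.05. The standard error was the size of the log2 fold change divided by the square root of F. Genes were outside the RANKL response at an adjusted p of 0.05 or above between RANKL and PBS. The test was checked on simulated counts. Named genes were the 15 with the largest fold in each direction (groups not overlapping, the higher group's mean at or above an FPKM of 1, no predicted gene or pseudogene), the 8 with the largest FPKM difference in each direction, and from 36 lists the first member and at most 4 called members with the largest log2 fold change, of which those the text needs are given. Members and lists were chosen with earlier results of these data known. Motif shares used the first RefSeq window of each symbol. Alternatives were median-of-ratios factors, no filter, DESeq2 1.42.0, limma 3.58.1 on log2(FPKM + 1) and log2(FPKM + 0.1), the 6 libraries compared alone, a replicate block, each library left out in turn, and the RANKL response set by the unadjusted p.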

Additional observations from a re-analysis of the deposited data

How the results depend on the processing

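Counts outside the RANKL response stayed within 1.5 times of 2694 higher and 2708 lower under median-of-ratios factors, no filter, DESeq2 (2850 and 3160) and the unadjusted limit for RANKL genes (2210 and 2177). With limma on log2(FPKM + 1), at least 2-fold changes were 496 higher and 850 lower, a scale that shrinks the folds of low genes. In the 6 libraries alone, 1855 were higher and 1714 lower. Over the fits that each left out 1 library, the counts ranged from 1560 to 3176 higher, 1539 to 3828 lower, 750 to 1359 at least 2-fold higher and 1135 to 2548 at least 2-fold lower. The cause was not tested.

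Of 170 named genes that were called, 132 kept their call in all 17 alternatives. Genes that changed direction were not called in any fit where they did so. Lamp1 was at -0.000697 with median-of-ratios factors and with DESeq2, -0.0262 without the filter and -0.126 and -0.127 in limma with pseudocounts of 1 and 0.1. Psmc3 was at -0.0148 without the filter and -0.111 and -0.114 in limma, and H2-K1 at -0.0506 and -0.0507 in limma. Over the fits without 1 library, Lamp1 ranged from -0.130 to 0.104, Psmc3 from -0.0469 to 0.163, H2-K1 from -0.0567 to 0.226, Ndufa9 from -0.0959 to 0.0787, Ccl2 from -1.35 to 3.0, Tnf from -0.655 to 1.95 and Ccnd1 from -1.13 to 3.18. Ccl2, Tnf and Ccnd1 turned only without vitamin replicate 2. Lamp1 turned without RANKL replicate 2 or vitamin replicate 1, Psmc3 without RANKL replicate 1 or 3 or vitamin replicate 2, H2-K1 without RANKL replicate 2, and Ndufa9 without RANKL replicate 2 or vitamin replicate 3.

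The labels do not say whether replicate numbers pair the samples. Deviations from the group means of same-numbered RANKL and vitamin libraries correlated at 0.00625, 0.0428 and 0.107 across genes. PBS libraries were not in this check. Some genes followed the number in PBS and RANKL: S100a9 was at 32.7, 56.5 and 3.98 FPKM in PBS and at 36.0, 66.9 and 3.66 with RANKL. With the replicate block, 2779 genes were higher and 2665 lower (1109 and 1647 at least 2-fold), and 20 S phase and 22 mitosis genes were higher.

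At 3 libraries a side, the spread within the vitamin group (biological coefficient of variation 0.442, against 0.305 with RANKL) limits which small changes can pass, and an absent call does not show an equal level.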
